A study of Homo sapiens with 18 samples.

Results

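The 7 APOBEC3 cytidine deaminase genes, APOBEC3A, APOBEC3B, APOBEC3C, APOBEC3D, APOBEC3F, APOBEC3G and APOBEC3H, were taken by gene symbol from the 60603 genes counted in 18 poly(A) RNA-seq libraries. The libraries came from MDA-MB-231, a basal, triple-negative human breast cancer cell line, and covered 9 conditions with 2 libraries each. In the transient system, control cells, which the protocol describes as given empty vector, were set beside cells given 0.6 µM doxorubicin for 48 h and beside cells labelled as transfected with FLAG-ZMYND8 before the same 48 h of doxorubicin. In the inducible system, cells carrying pInducer20 lentivirus for GFP or for ZMYND8 were selected with G418 and kept in 250 ng/mL doxycycline. They were left without doxorubicin or given 0.6 µM for 6 h or 48 h. Each construct was present in 1 cell line, so a difference between ZMYND8 and GFP cells cannot be told apart from a difference between the lines, and doxycycline was common to all inducible conditions. ZMYND8 is a chromatin reader protein, and the study asked how raised ZMYND8 changes the response of breast cancer cells to doxorubicin, a DNA-damaging topoisomerase II poison.

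APOBEC3 enzymes convert cytosine to uracil in single-stranded DNA. They restrict retroviruses and retrotransposons, and most members are known for their expression in immune cells. APOBEC3B is located in the nucleus and is known in breast cancer as a source of C-to-T and C-to-G mutations in tumour DNA. APOBEC3A, APOBEC3C and APOBEC3H have a single deaminase domain, whereas APOBEC3B, APOBEC3D, APOBEC3F and APOBEC3G have a catalytically inactive domain beside the active one.

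All members lie in tandem on the plus strand of chromosome 22 (hg38, GENCODE annotation of the count tables). APOBEC3A (ENSG00000128383.13) spans 38952741 to 38992778, APOBEC3B (ENSG00000179750.16) 38982347 to 38992804, and APOBEC3C (ENSG00000244509.4) 39014257 to 39020352. APOBEC3D (ENSG00000243811.10) spans 39021113 to 39033277, APOBEC3F (ENSG00000128394.17) 39040604 to 39055972, APOBEC3G (ENSG00000239713.9) 39077067 to 39087743, and APOBEC3H (ENSG00000100298.15) 39097224 to 39104067. Reads that could not be assigned to a single gene or place were left out of the counts, and the members share sequence. Of the 50-base windows in member exons, 43.7% were also found elsewhere on chromosome 22 for APOBEC3B, 22.4% for APOBEC3A, 18.7% for APOBEC3D, 14.1% for APOBEC3G, 13.5% for APOBEC3F, 3.47% for APOBEC3C and 0% for APOBEC3H. APOBEC3A and APOBEC3B share 348 annotated exon bases, 14.8% and 18.4% of their exons. APOBEC3D shares 83.2% of its exon bases with the overlapping gene ENSG00000284554, which had a count of 0 in the inducible libraries. The counts of APOBEC3A, APOBEC3B and APOBEC3D therefore leave out reads from the shared stretches, and their levels are the least certain.

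Total counts were 5729294 to 5972396 in 5 transient libraries, 24713822 in the second doxorubicin library, and 18300628 to 23724398 in the inducible libraries. Replicate 2 of doxorubicin alone and replicate 2 of the group labelled as transfected with FLAG-ZMYND8 were nearly alike, with a chi-square per degree of freedom of 1.39 against 9.71 to 55.6 in the other 14 transient pairs. ZMYND8 itself was not raised in the group labelled as transfected over the group with doxorubicin alone (log2 fold change −0.09). Its level in the labelled group was 160 and 125 CPM (counts per 1000000 of a library's total, scaled by TMM). It was at 182 and 123 CPM with doxorubicin alone, and 219 and 199 CPM in control cells. In ZMYND8 against GFP cells it was 2.15 higher on the log2 scale without doxorubicin, 3.16 higher at 6 h and 2.79 higher at 48 h. In ZMYND8 cells it stayed at 829 to 1001 CPM. In GFP cells it was at 209 and 208 CPM without doxorubicin, 93.8 and 99.4 at 6 h, and 139 and 141 at 48 h. The line's markers VIM, CD44 and EGFR were at 1922, 420.2 and 185 CPM or more in every library. ESR1 and PGR did not exceed 0.691 and 0.799 CPM, while EPCAM was at 6.89 to 44.5 and ERBB2 at 73.2 to 166 CPM.

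In GFP cells without doxorubicin, APOBEC3C had the highest level per length of the family, at 41.6 ± 0.224 CPM per kb of exon (SD, n = 2). APOBEC3B followed at 14.1 ± 0.897, APOBEC3F at 4.20 ± 0.156 and APOBEC3G at 2.91 ± 0.136 CPM per kb, and none of these neighbours overlapped between libraries. APOBEC3H was at 0.494 ± 0.162 and APOBEC3D at 0.336 ± 0.0918 CPM per kb, and these neighbours did overlap. Over the 425 exon bases of APOBEC3D that no other plus-strand gene shares, its level would be 2.00 CPM per kb. APOBEC3A had 0 to 3 counts in every library of the series and was at 0.0107 CPM per kb in these cells.

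**Figure D1:**
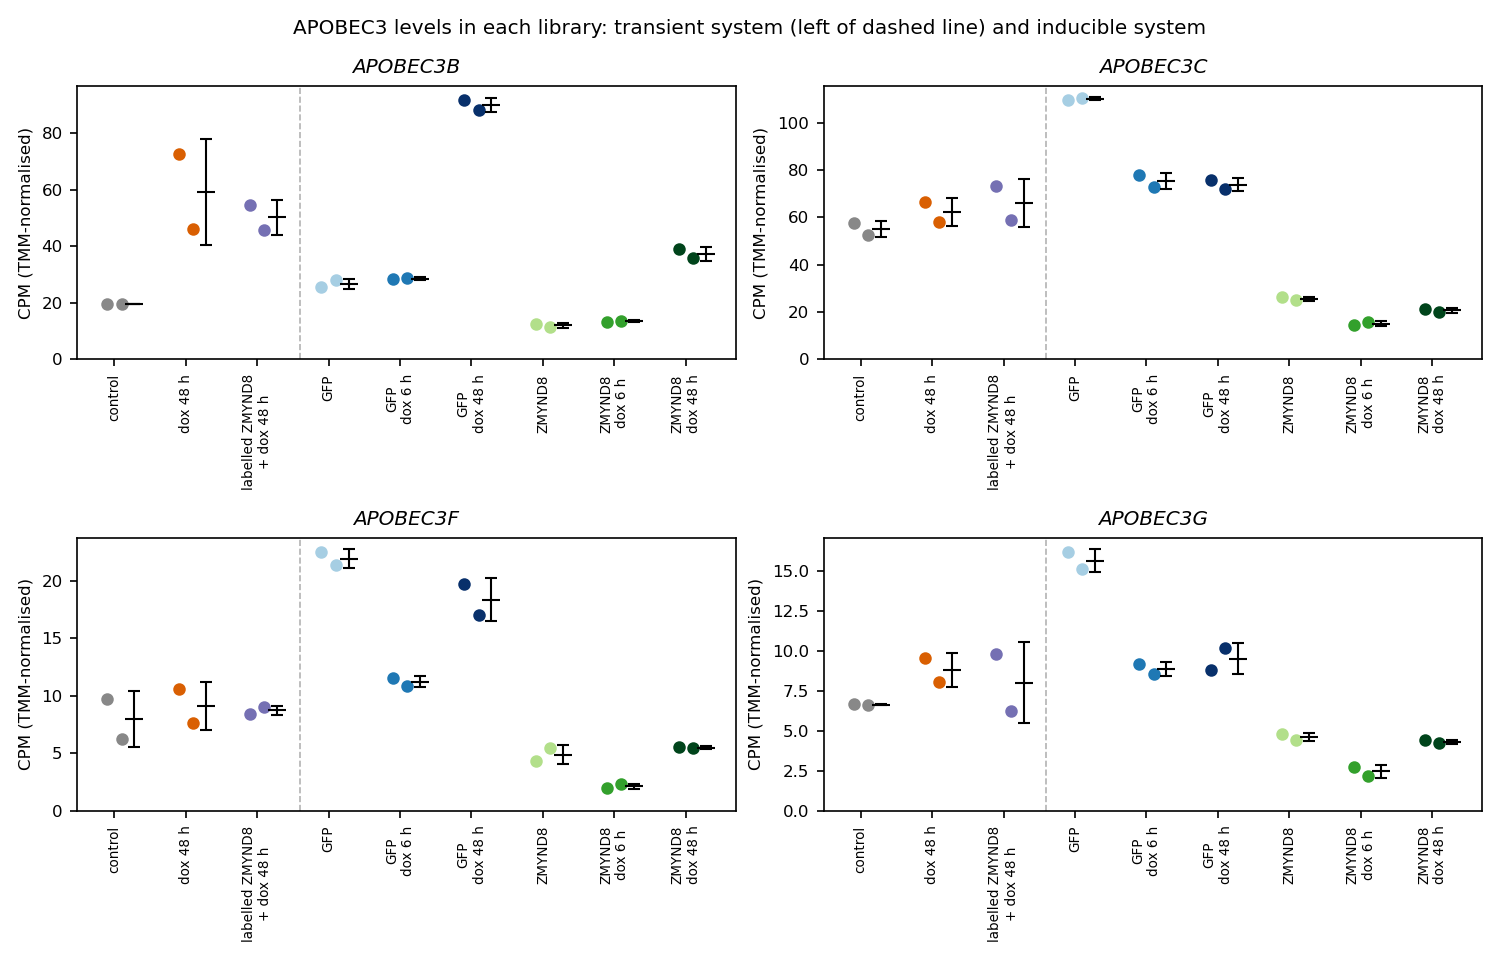
Levels of APOBEC3B, APOBEC3C, APOBEC3F and APOBEC3G in CPM, scaled by TMM within each system (y axes, linear), in every library of the 9 conditions (x axis); points are libraries and the bar beside each pair is the mean ± SD. APOBEC3B is highest after 48 h of doxorubicin in both lines, while APOBEC3C, APOBEC3F and APOBEC3G are lower in all ZMYND8 than in all GFP libraries.

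APOBEC3B was the member that rose with doxorubicin at 48 h. In GFP cells it was at 25.6 and 28 CPM without doxorubicin, 28.3 and 28.9 CPM at 6 h, and 91.9 and 88.3 CPM at 48 h. In ZMYND8 cells it was at 12.6 and 11.5 CPM without doxorubicin, 13.2 and 13.8 CPM at 6 h, and 39.2 and 35.7 CPM at 48 h. The 48 h libraries of each line lay above all its other libraries, and the 6 h and untreated libraries lay close together. The share of all genes separated in this way was not counted. The 48 h rise was 3.36-fold in GFP cells (log2 fold change 1.75 ± 0.0676 SE, adjusted p = 3.7e-18, edgeR's quasi-likelihood test, adjusted after Benjamini and Hochberg) and 3.12-fold in ZMYND8 cells (1.64 ± 0.0815, adjusted p = 1e-15). A gene is called here at an adjusted p of at most 0.05, and 64.2% and 62.3% of the 18801 genes tested were called in the same comparisons, 32.4% and 31.6% higher. With the study's cutoffs (an unadjusted p within 0.05 and an absolute log2 difference reaching 1.5) APOBEC3B was the only member called at 48 h in either line, beside 13.2% of all genes in GFP and 12.4% in ZMYND8 cells. At 6 h the difference was 0.10 in GFP cells (95% interval −0.06 to 0.25) and 0.17 in ZMYND8 cells (−0.03 to 0.37), neither of them called. In bulk RNA, a change in the number of expressing cells and a change in RNA per cell cannot be told apart.

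The same gene rose in the transient system. APOBEC3B was at 19.7 and 19.5 CPM in control cells, 72.6 and 46.1 CPM after 48 h of doxorubicin, and 54.6 and 46.0 CPM in the group labelled as transfected with FLAG-ZMYND8 before doxorubicin. Both treated groups lay above the controls and overlapped each other. How many of all genes did so was not counted. Doxorubicin against control gave a 3.01-fold rise (log2 fold change 1.59 ± 0.260 SE, adjusted p = 0.0093), where 5.13% of 15697 genes were called and 2.98% called higher. The group labelled as transfected was 2.57-fold above the same controls (1.36 ± 0.261, adjusted p = 0.014), where 6.82% of genes were called and 3.85% called higher. Without the second doxorubicin library the first of these log2 fold changes was 1.89 (adjusted p = 0.014), and without the second labelled library the other was 1.46 (adjusted p = 0.043). Without the first labelled library the latter was 1.23 and was no longer called (adjusted p = 0.092). Between the 2 treated groups APOBEC3B differed by −0.23 (95% interval −0.77 to 0.31), and 0 of 15697 genes (0%) were called by edgeR (54 at an unadjusted p under 0.05, and 0 called by DESeq2). The second libraries of these groups were nearly alike and ZMYND8 was not raised in the labelled group. This comparison therefore does not inform on raised ZMYND8. With 2 libraries against 2, an exact two-sided permutation test cannot go below p = 0.333, so no test of single genes outside the fit across all genes is given.

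The single-domain member APOBEC3C and the antiviral members APOBEC3F and APOBEC3G fell at 6 h in both lines. APOBEC3C went from 109.6 and 110.4 CPM to 77.7 and 72.9 CPM in GFP cells, and from 26.2 and 25.0 to 14.4 and 15.9 CPM in ZMYND8 cells. APOBEC3F went from 22.5 and 21.3 to 11.5 and 10.9 CPM in GFP cells, and from 4.30 and 5.47 to 1.97 and 2.31 CPM in ZMYND8 cells. APOBEC3G went from 16.2 and 15.1 to 9.19 and 8.56 CPM in GFP cells, and from 4.80 and 4.46 to 2.76 and 2.21 CPM in ZMYND8 cells. No 6 h library overlapped the untreated libraries of its line for these 3 genes. Such a separation of 2 libraries from 2 has p = 0.333 in an exact two-sided permutation test. Its share over all genes was not counted. In GFP cells the log2 fold changes were −0.55 ± 0.0529 SE for APOBEC3C (adjusted p = 1.6e-09), −0.96 ± 0.113 for APOBEC3F (adjusted p = 5e-08) and −0.82 ± 0.127 for APOBEC3G (adjusted p = 4.6e-06). In ZMYND8 cells they were −0.75 ± 0.0792 (adjusted p = 1.2e-08), −1.21 ± 0.183 (adjusted p = 4.7e-06) and −0.89 ± 0.179 (adjusted p = 0.00019). Of all genes tested, 47.9% were called at 6 h in GFP cells, 25.8% as lower, and 40.8% in ZMYND8 cells, 19% as lower.

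At 48 h these 3 members parted. In GFP cells APOBEC3C stayed at 75.9 and 71.8 CPM and APOBEC3G at 8.83 and 10.2 CPM, both below the untreated libraries (log2 fold change −0.58, adjusted p = 2e-10, and −0.72, adjusted p = 1.3e-05), where 31.8% of genes were called lower. APOBEC3F was at 19.7 and 17 CPM, above its 6 h level by 0.71 (adjusted p = 5.1e-06), where 62.2% of genes were called and 32% called higher. Against untreated cells its log2 fold change was −0.26 (adjusted p = 0.035), a call that was lost with RLE or total-count scaling, with a stricter count filter, with DESeq2, and without either untreated library or the second 48 h library (−0.01 to −0.30). In ZMYND8 cells APOBEC3C at 21.4 and 19.99 CPM, APOBEC3F at 5.57 and 5.45 CPM and APOBEC3G at 4.43 and 4.25 CPM were all higher at 48 h than at 6 h. Those differences were 0.45, 1.36 and 0.80 on the log2 scale (highest adjusted p 0.00032), where 61.5% of genes were called and 30.2% called higher. Against untreated ZMYND8 cells APOBEC3C was still lower at 48 h (−0.30, adjusted p = 0.00073, but −0.10 and not called with total-count scaling; 30.8% of genes were called lower), while APOBEC3F (0.16, 95% interval −0.15 to 0.46) and APOBEC3G (−0.09, −0.41 to 0.23) were not called. With total-count scaling APOBEC3F was called higher there (0.36, adjusted p = 0.032), and so were APOBEC3C (0.22, adjusted p = 0.00083) and APOBEC3G (0.35, adjusted p = 0.022) from 6 h to 48 h in GFP cells. In the transient system none of the 3 was called with doxorubicin. Their log2 fold changes were 0.18 for APOBEC3C, 0.16 for APOBEC3F and 0.39 for APOBEC3G, with 95% intervals that span 0, from −0.57 to 1.11 in all.

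**Figure D2:**
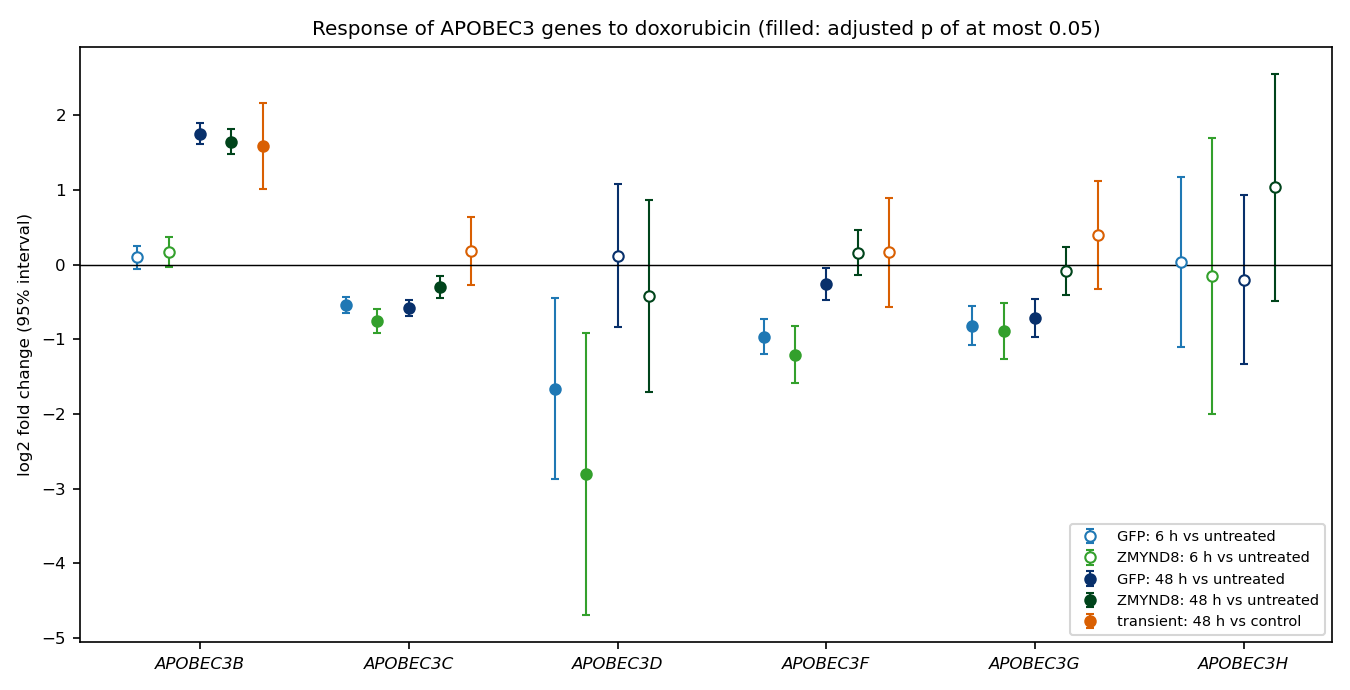
Log2 fold change with doxorubicin (y axis) for the 6 members tested (x axis), at 6 h and 48 h in GFP and ZMYND8 cells and at 48 h in the transient system, with 95% intervals; filled points have an adjusted p of at most 0.05, and APOBEC3D and APOBEC3H were not tested in the transient system. APOBEC3B is the member with filled points above 0, and APOBEC3C, APOBEC3F and APOBEC3G have filled points below 0 at 6 h. APOBEC3D is also filled below 0 at 6 h. It passed the filter on low counts through the untreated and 48 h GFP libraries, so its points are not independent of that filter.

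APOBEC3D, a weaker restriction factor, was measured with few counts. In GFP cells it had 20 and 13 counts without doxorubicin, 3 and 7 at 6 h, and 15 and 28 at 48 h. In ZMYND8 cells it had 6 and 10, then 1 and 1, then 10 and 4 counts. The lowest counts of each line were those at 6 h. The 6 h log2 fold change was −1.66 ± 0.590 SE in GFP cells (adjusted p = 0.022) and −2.80 ± 0.921 in ZMYND8 cells (adjusted p = 0.016), and from 6 h to 48 h it was 1.78 (adjusted p = 0.0086) and 2.38 (adjusted p = 0.033). With the study's cutoffs APOBEC3D was the only member called at 6 h, beside 4.71% of all genes in GFP and 2.73% in ZMYND8 cells, and from 6 h to 48 h in ZMYND8 cells, beside 12.9%. DESeq2 called none of the 3 of these values for which it gave an adjusted p. Without the first untreated or the first 6 h GFP library the GFP call at 6 h was lost (adjusted p = 0.17 and 0.20), and without the first 6 h or the second 48 h GFP library the GFP call from 6 h to 48 h was lost (0.12 and 0.14). Leaving out one or the other 6 h ZMYND8 library lost both ZMYND8 calls, and the first was lost without the second untreated library and the second without the first 48 h library (adjusted p = 0.069 to 0.29). APOBEC3D passed the filter on low counts through the GFP libraries, untreated and at 48 h, where it is high, so its calls are not independent of that filter, and in the transient system, where it had 2 to 20 counts, it did not pass.

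APOBEC3H, another antiviral restriction factor, also had few counts. They were 15 and 9, 12 and 12, and 8 and 17 in GFP cells without doxorubicin, at 6 h and at 48 h. In ZMYND8 cells they were 1 and 6, 3 and 3, and 5 and 12, and in the transient system 0 to 4. Like APOBEC3D, it passed the filter through the GFP libraries. No comparison of doxorubicin with its absence called APOBEC3H, and its 95% intervals ran from −1.996 to 2.55 on the log2 scale over both lines and times. APOBEC3A, the most active of the DNA deaminases, was not tested. It had 3 and 3 counts in ZMYND8 cells at 48 h and 0 and 2 in GFP cells at 48 h, with 1 count in all the other inducible libraries together, and 3 counts is also the limit that a count of 0 allows.

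Of the members, APOBEC3H has an entry in the RefSeq promoter table (GRCh38.p14). It is shown as the member promoter that table holds, and it covers the plus strand of chr22:39096994-39097293, from 250 bases before the RefSeq start to 50 after it, a start that differs from the one given above.
APOBEC3H: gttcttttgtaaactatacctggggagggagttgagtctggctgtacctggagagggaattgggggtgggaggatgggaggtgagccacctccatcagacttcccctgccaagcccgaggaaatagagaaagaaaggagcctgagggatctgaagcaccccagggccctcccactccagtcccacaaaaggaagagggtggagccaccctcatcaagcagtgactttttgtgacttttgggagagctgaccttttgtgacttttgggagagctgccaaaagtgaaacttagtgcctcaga
No letters are in capitals because neither of the motifs searched on both strands was in this window. They were the E2F site GCGGGAA, found in 6.56% of the 27305 promoters of that table, and the cell cycle genes homology region TTTGAA, found in 15.4%, and they do not overlap each other.

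APOBEC3B, APOBEC3C, APOBEC3F and APOBEC3G were lower in ZMYND8 than in GFP cells without doxorubicin. APOBEC3C was at 110.0 ± 0.594 CPM in GFP and 25.6 ± 0.849 CPM in ZMYND8 cells (SD, n = 2), a 4.31-fold lower level (log2 fold change −2.11 ± 0.0605 SE, adjusted p = 8.1e-21). APOBEC3F was 4.43-fold lower (−2.15 ± 0.127, adjusted p = 3.9e-14), APOBEC3G 3.39-fold lower (−1.76 ± 0.138, adjusted p = 1.4e-11) and APOBEC3B 2.23-fold lower (−1.16 ± 0.0870, adjusted p = 6.3e-12). For each of the 4, no ZMYND8 library overlapped the GFP libraries. A separation of 2 libraries from 2 has p = 0.333 in an exact two-sided permutation test, and its share over all genes was not counted. APOBEC3H, with 15 and 9 against 1 and 6 counts, had a log2 fold change of −1.83 ± 0.692 (adjusted p = 0.025), which was not called with DESeq2 or without the first GFP or the first ZMYND8 library (adjusted p = 0.19 and 0.20). APOBEC3H and APOBEC3D were tested because of their counts in GFP cells, so their differences between the lines are given as values and support no direction. APOBEC3D was at −1.11 (95% interval −2.22 to 0.00). Of all genes, 58.3% were called in this comparison and 29.5% were called lower.

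The same 4 genes were lower in ZMYND8 cells at both times of treatment. At 6 h it was −1.09 for APOBEC3B, −2.31 for APOBEC3C, −2.39 for APOBEC3F and −1.83 for APOBEC3G on the log2 scale (highest adjusted p 2.5e-10). At 48 h it was −1.26, −1.83, −1.73 and −1.13 for the same genes (highest adjusted p 7.7e-08). With the study's cutoffs APOBEC3C and APOBEC3F were called at 48 h, and so was APOBEC3D, which was tested because of its counts in GFP cells, beside 9.44% of all genes. Of all genes, 55.5% were called at 6 h and 60% at 48 h, 26.6% and 31.6% as lower. APOBEC3D was −2.25 at 6 h (adjusted p = 0.059, but 0.039 without the first GFP library of that time) and −1.65 at 48 h (adjusted p = 0.0091, but 0.17 without the second GFP and 0.14 without the second ZMYND8 library of that time). APOBEC3H was −2.02 at 6 h (adjusted p = 0.018, but 0.056 to 0.085 without any one of the 4 libraries) and −0.59 at 48 h. DESeq2 called neither the 48 h value of APOBEC3D nor the 6 h value of APOBEC3H.

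Leukocyte markers, most of them near 0, were lower in sum in ZMYND8 cells. Summed over 11 leukocyte genes, they were at 20.04 to 21.4 CPM in GFP and 3.24 to 3.28 CPM in ZMYND8 cells without doxorubicin, with 4 of 11 at 0 in both libraries of each line. Most of the difference was CD14, at 19.8 and 18.3 against 2.35 and 2.01 CPM, and without it the sums were 1.67 to 1.74 and 0.893 to 1.27 CPM. LYZ was at 0.558 and 0.422 against 0.447 and 0.569 CPM, which overlap. With doxorubicin the sums followed APOBEC3C, APOBEC3F and APOBEC3G in some comparisons and not in others. At 6 h in GFP cells, where those genes fell, the sum was 15.7 to 16.2 CPM, and 0.749 to 1.15 CPM without CD14. At 6 h in ZMYND8 cells, where those genes also fell, the sum was 3.35 to 3.52 CPM. At 48 h in ZMYND8 cells, where they were above their 6 h levels, the sum was 7.52 to 7.61 CPM. At 48 h in GFP cells, where they were lower than without doxorubicin, the sum without CD14 was 6.30 to 6.56 CPM, against 4.51 CPM in ZMYND8 cells. At 48 h PTPRC, the pan-leukocyte CD45, was higher in GFP libraries (3.37 and 3.95 against 2.03 and 2.04 CPM). The myeloid gene ITGAM was higher in ZMYND8 libraries at that time (0.529 and 0.893 against 0.311 and 0.379 CPM). The T cell gene CD3E had 0 to 7 counts, CD2 and MS4A1 at most 2, and the natural killer gene NKG7 at most 1 in any inducible library. Their part in the result was not tested.

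**Figure D3:**
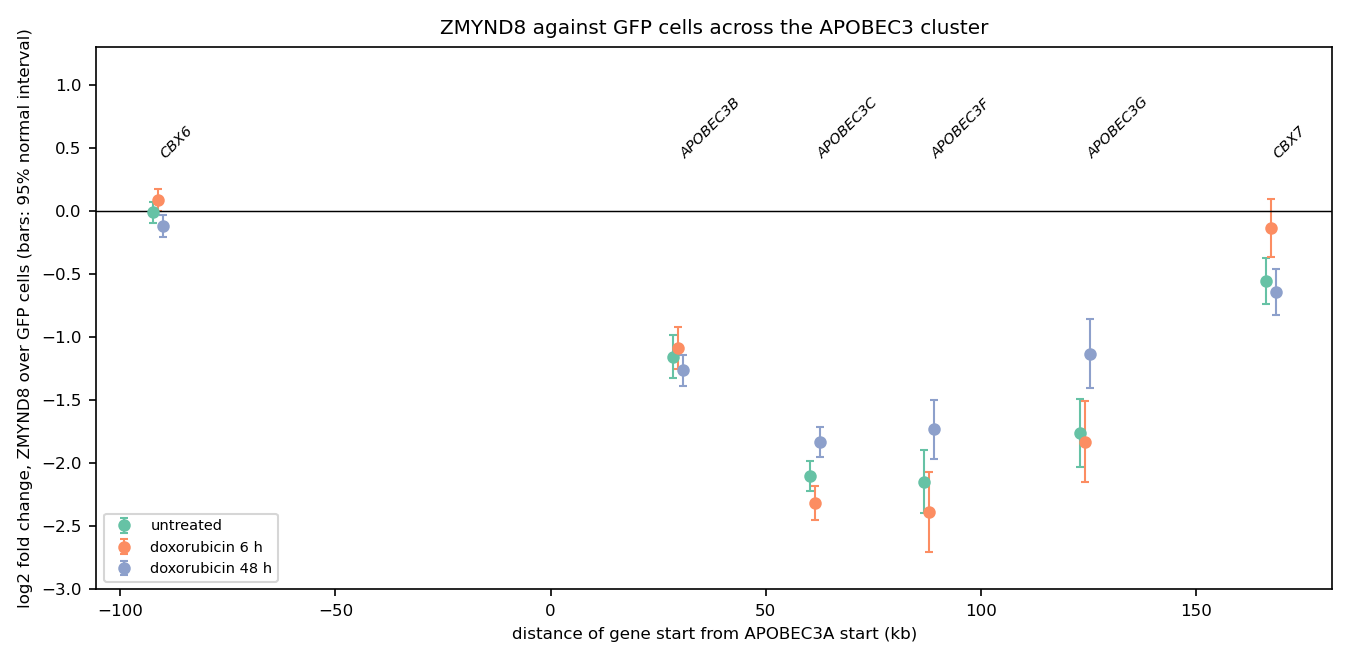
Log2 fold change of ZMYND8 over GFP cells with 95% intervals (y axis), without doxorubicin and at 6 h and 48 h. The x axis is the distance in kb of each gene's lowest coordinate, on either strand, from that of APOBEC3A. Members with few counts are left out, and points are set slightly apart along the x axis. The 4 members lie between −1.09 and −2.39, while the flanking genes CBX6 and CBX7 lie between 0.09 and −0.65.

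The differences of the flanking Polycomb genes were smaller in size. CBX6, a Polycomb subunit gene on the minus strand, has its lowest coordinate 91.3 kb before that of APOBEC3A. It was at 128 CPM in GFP and 127 CPM in ZMYND8 cells (log2 fold change −0.01 ± 0.0439 SE, adjusted p = 0.84). CBX7, a related Polycomb gene on the minus strand, has its lowest coordinate 167.4 kb after that of APOBEC3A. It was at 27.3 and 18.7 CPM (−0.56 ± 0.0931, adjusted p = 9.7e-06). At 6 h the differences were 0.09 for CBX6 and −0.14 for CBX7, neither called, and at 48 h both were called, CBX6 at −0.12 (adjusted p = 0.025) and CBX7 at −0.65 (adjusted p = 1.2e-06). The antisense gene APOBEC3B-AS1 shares 244 exon bases with APOBEC3B and had 3 to 50 counts in the inducible libraries, 1.33% to 4.52% of the APOBEC3B count. Its difference between lines had the direction of the members, at −1.31 without doxorubicin (adjusted p = 0.060), −1.72 at 6 h (adjusted p = 0.017) and −0.87 at 48 h (adjusted p = 0.050, called), and it rose at 48 h by 1.58 in GFP and 2.02 in ZMYND8 cells (adjusted p = 0.0019 and 0.0017), as its partner did. In the transient libraries its count was 20% to 41.7% of that of APOBEC3B. Of the other 8 annotated genes within 100 kb of the members, 7 had at most 9 counts in any inducible library, and ENSG00000279833 had 8 to 33.

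No difference between the lines in the response of APOBEC3B was detected. The difference between the 48 h responses of ZMYND8 and GFP cells, the interaction term, was −0.11 for APOBEC3B (95% interval −0.33 to 0.12), and at 6 h it was 0.07 (−0.18 to 0.32). For 2 members the 48 h responses differed. The decrease of APOBEC3C was smaller in ZMYND8 cells by 0.27 ± 0.0890 SE on the log2 scale (adjusted p = 0.021), and APOBEC3G, which fell by 0.72 in GFP cells and was −0.09 in ZMYND8 cells, had a term of 0.63 ± 0.200 (adjusted p = 0.019). In this comparison 28.6% of all genes were called, against 2 of the 6 members tested. With the study's own cutoffs in place of the adjusted p, neither was called, and of all genes 3.7% were. Both calls were lost with DESeq2 and with no filter on low counts, and each was lost in 4 of 8 fits that left out 1 library (adjusted p of up to 0.13 and 0.094). APOBEC3F had a term of 0.41 (adjusted p = 0.092, but 0.037 without the second untreated ZMYND8 library). At 6 h, 0 members were called by edgeR or by DESeq2, where edgeR called 13.4% of all genes, and APOBEC3C alone had an unadjusted p under 0.05 (−0.21, edgeR's adjusted p = 0.17, but 0.041 with total-count scaling).

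The make-up of the family shifted towards APOBEC3B. It held 14.6% and 15.9% of the summed member counts in untreated GFP cells (exact 95% binomial intervals 13.4% to 15.8% and 14.7% to 17.2%), 22.2% and 23.6% at 6 h, and 46.6% in both libraries at 48 h. In ZMYND8 cells it held 26.1% and 24.4%, then 40.6% and 40%, then 55.0% and 53.9%. APOBEC3C took 62.4% and 62.7% of the counts in untreated GFP cells and 38.4% and 37.9% in GFP cells at 48 h. In ZMYND8 cells it took 54.2% and 53.0% without doxorubicin and 30.0% and 30.2% at 48 h. In the transient system the APOBEC3B share was 20.9% and 22.7% in control cells, 45.3% and 38.2% with doxorubicin, and 37.2% and 38.0% in the group labelled as transfected. The intervals cover counting error only, and the shares are not corrected for length. The summed level of the members was 175.8 CPM in untreated GFP cells, 124.9 at 6 h and 193.3 at 48 h, against 47.7, 33.5 and 68.8 CPM in ZMYND8 cells. ZMYND8 cells at 48 h thus held the highest share of APOBEC3B and less of the family in all than untreated GFP cells.

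**Figure D4:**
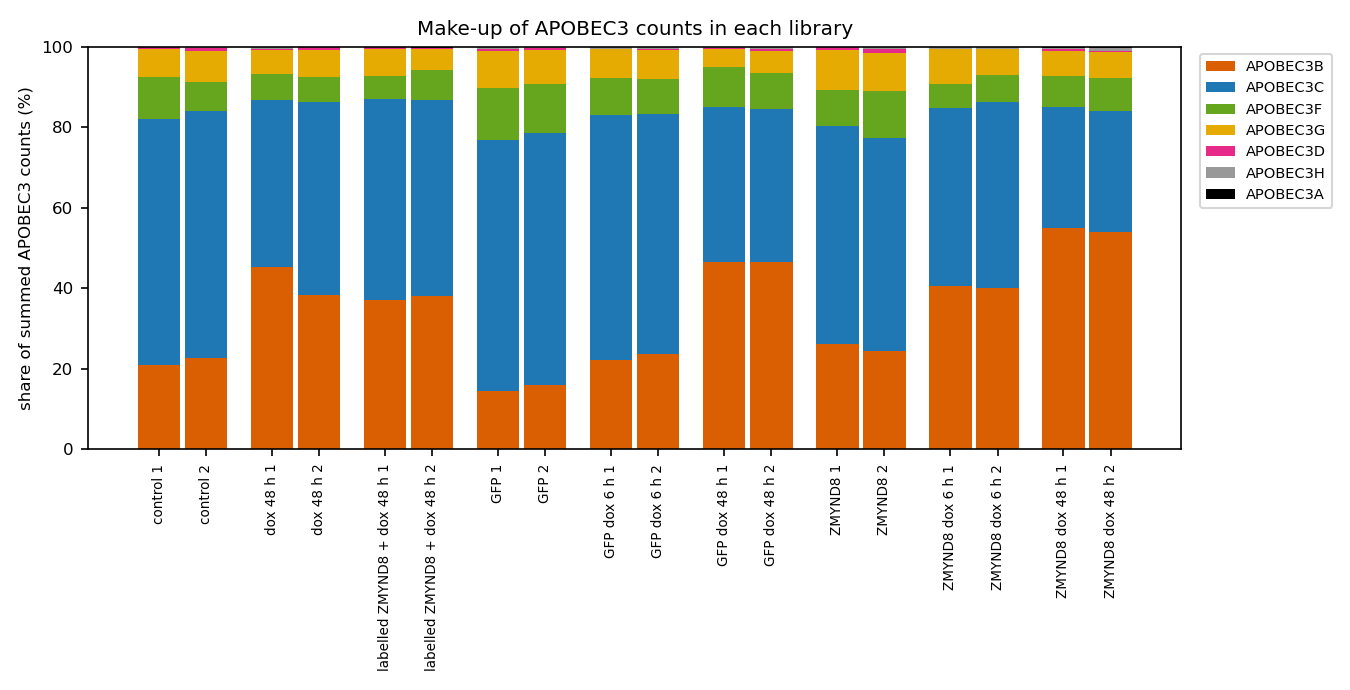
Share of the summed APOBEC3 counts taken by each member in percent (y axis) in each of the 18 libraries (x axis). The APOBEC3B share is between 14.6% and 26.1% in libraries without doxorubicin and between 37.2% and 55.0% in libraries with 48 h of it.

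Reported regulators of APOBEC3B transcription were counted as a list of 18 genes. The list holds MYBL2, E2F and DREAM complex genes, which time cell cycle transcription, and NF-κB genes. At 48 h, 12 of 18 rose and 3 fell in GFP cells (median log2 fold change 0.59, against 0.03 over all genes), and 12 rose and 3 fell in ZMYND8 cells (median 0.40, against 0.05). Of all genes, 32.4% and 31.6% were called higher in these comparisons and 31.8% and 30.8% lower. MYBL2, an activator of late cell cycle genes, went from 98.7 ± 2.24 to 356 ± 10.1 CPM in GFP cells (1.85, adjusted p = 3.9e-21) and from 81.5 ± 3.16 to 175 ± 1.63 CPM in ZMYND8 cells (1.10, adjusted p = 6.6e-16). E2F1 rose by 1.65 and 0.84, and FOXM1 by 1.25 and 0.39. RELB, the non-canonical NF-κB subunit, rose by 0.62 and 1.09, while RBL2, a repressor subunit of DREAM, was −0.59 and −0.58. At 6 h, when APOBEC3B was not called, 12 of 18 rose and 3 fell in GFP cells and 11 rose and 2 fell in ZMYND8 cells, among them E2F1 (0.92 and 0.66), while 22.1% and 21.8% of all genes were called higher and 25.8% and 19% lower. In the transient system 5 of 18 rose with doxorubicin and 0 fell (7 rose with the replicate block), led by MYBL2 (2.25) and E2F1 (1.62), where 2.98% of all genes were called higher. Without doxorubicin, 10 of the 18 were higher and 6 lower in ZMYND8 than in GFP cells, beside 28.7% and 29.5% of all genes. RELB (−0.95) and MYBL2 (−0.27) were lower there, and E2F1 (0.35) and FOXM1 (0.43) were higher.

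Interferon-stimulated genes and genes of interferon signalling, a programme that also acts on several APOBEC3 genes, followed another course. Of 13 genes, 10 rose and 0 fell at 48 h in GFP cells (median log2 fold change 1.21) and 13 rose in ZMYND8 cells (median 1.18), while at 6 h 2 rose and 8 fell in GFP cells and 2 rose and 7 fell in ZMYND8 cells. Of all genes, 32.4% and 31.6% were called higher at 48 h (medians 0.03 and 0.05), and 25.8% and 19% lower at 6 h. IFI6, an interferon-induced gene, rose by 2.72 and 2.18 at 48 h. Without doxorubicin 8 of 13 were higher and 3 lower in ZMYND8 than in GFP cells, beside 28.7% and 29.5% of all genes. IFI44 (3.26) and IFIT2 (2.83) were higher there, and MX1 (−1.26), IRF1 (−0.75) and IRF9 (−1.41) were lower. In the transient system 1 of 12 tested genes rose with doxorubicin and 6 of 12 in the group labelled as transfected against the same controls (4 and 9 with the replicate block), beside 2.98% and 3.85% of all genes.

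Genes that repair uracil and abasic sites in DNA, the lesions that follow APOBEC3 activity, were counted as a list of 16. At 48 h, 12 rose and 2 fell in each line (median 0.44 in GFP and 0.25 in ZMYND8 cells), beside 32.4% and 31.6% of all genes called higher. UNG, the main uracil-DNA glycosylase, went from 79.0 ± 3.02 to 112 ± 1.27 CPM in GFP cells (0.50, adjusted p = 1.7e-09) and from 62.9 ± 2.43 to 92.3 ± 3.05 CPM in ZMYND8 cells (0.55, adjusted p = 6.5e-10). FEN1, the flap endonuclease of long-patch repair, rose by 1.47 and 0.64, and APEX2, an abasic site endonuclease, by 1.12 and 1.09. REV3L, the catalytic subunit of a translesion polymerase, was −0.60 and −0.39. In the transient system 1 of 16 rose with doxorubicin, FEN1 (1.5, adjusted p = 0.017), and 3 rose in the group labelled as transfected (3 and 4 with the replicate block), beside 2.98% and 3.85% of all genes. Without doxorubicin 7 of 16 were higher and 8 lower in ZMYND8 than in GFP cells, beside 28.7% and 29.5% of all genes.

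The host proteins that the viral protein Vif recruits to degrade APOBEC3 proteins were a list of 7. In GFP cells 2 rose and 4 fell at 48 h, and in ZMYND8 cells 1 rose and 5 fell. Of all genes, 32.4% and 31.6% were called higher and 31.8% and 30.8% lower. The higher calls were not above that background, while the lower calls were. The median log2 fold change of the list was −0.38 in GFP and −0.23 in ZMYND8 cells, against 0.03 and 0.05 over all genes. With a list of 7, this was not tested. CUL5, the scaffold of that ubiquitin ligase, was −0.63 and −0.70, and ELOC, its adaptor, 0.19 and 0.36. RNF7, its RING subunit, was the only one called with doxorubicin in the transient system (−0.81, adjusted p = 0.048). Of the APOBEC genes outside the APOBEC3 group, APOBEC1 and APOBEC2 were not tested. APOBEC4, a relative without known deaminase activity, had 0 counts in all untreated and 6 h inducible libraries, 13 and 1 at 48 h in GFP cells, and 14 and 10 at 48 h in ZMYND8 cells. It passed the filter through the 48 h libraries, and in GFP cells 1 library held nearly all of its counts, so no test of it is given.

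Across the 12 inducible libraries, the levels of APOBEC3C, APOBEC3F and APOBEC3G followed each other closely, with a Pearson r of log2 CPM of 0.955 to 0.972 between pairs. APOBEC3B had an r of 0.519 to 0.672 with the other members tested. The genes most like APOBEC3B were ADGRB2 (r = 0.992), CGN (0.988) and IP6K2 (0.986), and those most like APOBEC3C were CYP27A1 (0.995), KIAA0586 (0.994) and CCDC69 (0.993). ICAM5 (0.993) was most like APOBEC3F, ETV4 (0.991) most like APOBEC3G, BRD3 (0.946) most like APOBEC3D, and CPNE7 (0.934) most like APOBEC3H. The 12 points are 2 libraries of each of 6 conditions in 2 lines, and they share line, treatment and batch of counting, so r is a description only.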

How the data were processed

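Poly(A) RNA was sequenced from 18 libraries of MDA-MB-231 cells, described as 2 biological replicates for each of 9 conditions. Per the submitters' processing notes, reads were trimmed with Trim Galore, aligned to hg38 with HISAT2 and counted with featureCounts 1.6.4 on GENCODE release 31, while the study's methods name TopHat as the aligner. Per the file headers, read pairs were counted over exons by gene with strand setting 2 and without multi-mapping or ambiguous pairs, and the labels do not say whether the kit marked strand. The deposited values are raw counts per gene and library, with 1 table per system.

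Counts were tested in R 4.3.3 with edgeR 4.0.16 (TMM factors, filterByExpr, quasi-likelihood test), with 1 mean per condition, fitted over all 15697 (transient) or 18801 (inducible) genes past the filter, in 14 comparisons. Of the members, 4 of 7 passed the filter in the transient and 6 of 7 in the inducible system. The SE of a log2 fold change was taken as its size divided by the square root of the F statistic. CPM used TMM-scaled totals within a system, so levels are not comparable between systems. Same-numbered libraries of the transient system deviated together (correlation 0.208 to 0.404 in 3 of 3 pairs), which was taken as pairing. The highest correlation was between the 2 treated groups, whose second libraries were nearly alike. The transient values given are from the fit without a replicate block, except where the block is named. No member call changed with the replicate block, while some counts of the gene lists rose. Alternatives were RLE and total-count scaling, other filters, DESeq2 1.42.0, the study's cutoffs (an unadjusted p within 0.05 and an absolute log2 difference reaching 1 in the transient or 1.5 in the inducible system), a replicate block and leaving out each library.

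The members and gene lists were chosen with earlier results of these data known. The text names all members and, of each list, genes with the smallest p in the comparison or with a defining role, the annotated neighbours within 100 kb, and the genes with the highest Pearson r of log2 CPM (prior count 2, 12 libraries) to each member. The DREAM and NF-κB examples and the 6 h values of list genes were chosen after their values were seen. Some members of the gene lists, though counted with their lists, are not reported here by name.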

Additional observations from a re-analysis of the deposited data

Results flagged for a closer look

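For 2 members the response to 48 h of doxorubicin differed between ZMYND8 and GFP cells by a test of the difference itself, 2 of 6 tested, where 28.6% of all genes were called. The term for APOBEC3C was 0.27 (adjusted p = 0.021), with levels of 110.0 and 73.8 CPM in GFP cells and 25.6 and 20.7 CPM in ZMYND8 cells without doxorubicin and at 48 h. The term for APOBEC3G was 0.63 (adjusted p = 0.019), with levels of 15.7 and 9.53 CPM in GFP cells and 4.63 and 4.34 CPM in ZMYND8 cells. Neither call was kept with DESeq2, with no filter on low counts or with the study's cutoffs, and each was lost in 4 of the 8 fits that left out 1 library.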

How the results depend on the processing

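Of 78 results of members, 41 were called, and 370 of the 416 values of these under the alternatives kept direction and call. These counts include calls of APOBEC3D and APOBEC3H, which passed the filter on low counts through the GFP libraries. The alternative fits and comparisons also share libraries, so the counts are a description only. With the study's cutoffs, 1 member was called in each comparison of doxorubicin with its absence in either line, APOBEC3B at 48 h and APOBEC3D at 6 h. From 6 h to 48 h in ZMYND8 cells 1 was called, APOBEC3D, and between the lines at 48 h 3 were, APOBEC3C, APOBEC3D and APOBEC3F. APOBEC3B and APOBEC3D met these cutoffs from 6 h to 48 h in GFP cells. Between the lines APOBEC3B met them at no time. The APOBEC3D calls are not independent of the filter on low counts. With these cutoffs, 0 members were called by the interaction term at 48 h. That term also called 0 members with no filter on low counts and with DESeq2. With total-count scaling, which moves the median of all genes by up to 0.288, 5 members were called from 6 h to 48 h in GFP cells and 1 by the interaction term at 6 h. The direction turned with total-count scaling for APOBEC3C (0.22) and APOBEC3H (0.01) from 6 h to 48 h in GFP cells, APOBEC3H at 48 h in GFP cells (0.04), APOBEC3G at 48 h in ZMYND8 cells (0.12) and APOBEC3B by the interaction term at 6 h (−0.01), and with a stricter filter for APOBEC3C from 6 h to 48 h in GFP cells (0.02). The cause was not tested.

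Leaving out 1 library, the interaction term at 48 h called 0 to 2 members, and the group labelled as transfected against control 0 to 1. The direction turned for some members that were not called. Log2 fold changes ran from −0.13 to 0.49 for APOBEC3F with transient doxorubicin, and in the labelled libraries against control from −0.16 to 0.46 for APOBEC3F and −0.10 to 0.54 for APOBEC3G. Between the treated transient groups they ran from −0.54 to 0.12 for APOBEC3B, −0.08 to 0.21 for APOBEC3C, −0.29 to 0.19 for APOBEC3F and −0.48 to 0.15 for APOBEC3G. In GFP cells they ran from −0.25 to 0.42 for APOBEC3H at 6 h, −0.36 to 0.46 for APOBEC3D and −0.80 to 0.20 for APOBEC3H at 48 h, and from 6 h to 48 h −0.09 to 0.00 for APOBEC3C, −0.02 to 0.19 for APOBEC3G and −0.84 to 0.16 for APOBEC3H. In ZMYND8 cells they ran from −0.76 to 1.36 for APOBEC3H at 6 h, and at 48 h −1.18 to 0.05 for APOBEC3D and −0.02 to 0.35 for APOBEC3F. The interaction term at 6 h ran from −0.24 to 0.08 for APOBEC3G and −0.81 to 1.32 for APOBEC3H. Replicate numbers of the inducible system were only names (correlations −0.046 to 0.022 over 15 pairs), and the replicate block left the calls of all 78 results of members as they were. Low counts limit APOBEC3A, APOBEC3D and APOBEC3H.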
